A study of Mus musculus with 2 samples.

Results

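The genes described here encode 9 subunits of the AP-1 transcription factor and of closely related basic leucine zipper proteins: Fos, Fosb, Fosl1, Fosl2, Jun, Junb, Jund, Atf3 and Maff. They were taken by symbol from a table of 18724 genes, in which each of the 9 had 1 row. The table compared 2 populations of luminal epithelial cells, freshly sorted by flow cytometry from the prostate of normal mice of 18 weeks. In the study's title the cells carry green fluorescent protein (GFP) fused to histone 2B, a label that is diluted when a cell divides, and that rarely dividing cells therefore keep longest. The GFP-positive sort is the label-retaining group and the GFP-negative sort the non-retaining group, with 1 RNA library each. The sources used here do not give the promoter that drove the label, the strain, the number of mice pooled or the surface markers of the sort. With 1 library per group no test between the groups was possible, and all values compare these libraries rather than the conditions.

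AP-1 is a dimer. Jun proteins pair with each other or with Fos proteins, whereas Fos proteins need a Jun partner, and the pair binds a short palindromic DNA element. Atf3 and the small Maf protein Maff share the leucine zipper but have their own partners and sites, and Maff lacks a transactivation domain. Many of these genes are immediate early genes: growth factors and stress switch them on within minutes through MAP kinases, their mRNAs decay fast, and enzymatic dissociation of a tissue is known to induce several of them.

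The label-retaining library held 50689229 reads in the rows of the table and the non-retaining library 48334265. All 9 genes were abundant, with between 9219 reads (Fosl1, label-retaining) and 116815 reads (Jun, non-retaining). Together they took 374649 reads in the label-retaining library, 0.739% of its total, and 584996 reads in the non-retaining library, 1.21% of its total. Values below are normalised read counts, that is, reads divided by the size factor the authors used for each library. Ratios are the log2 of label-retaining over non-retaining, so that a negative value means less in label-retaining cells. The interval after a ratio is an exact 95% counting interval and does not cover differences between mice or sorts. In such bulk libraries, fewer cells of a type and less RNA per cell cannot be told apart. Markers of several other cell types differed between the sorts. The 10 basal markers summed to 0.0374% of all reads in label-retaining cells and 0.720% in non-retaining cells, and none was at 0. The 10 luminal markers summed to 5.22% and 1.48%. The part of this difference in the results below was not tested.

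Of the 9 genes, Junb and Fosl2 were lower in label-retaining cells by 2-fold or more, none was higher by as much, and 7 lay within 2-fold of equality. Across all 17183 measured genes, 19.4% were at least 2-fold lower and 14.5% at least 2-fold higher, so that the share of AP-1 genes called lower, 2 of 9, was near the background. In 7 of the 9 genes the ratio lay below equality together with its whole interval, against 38.5% of measured genes, and in 2 above it, against 38.2%. The other measured genes had an interval holding 0, which is more common at few reads. These shares are therefore no like background for 9 abundant genes. With other scalings between the libraries, given below, 9 genes (total read counts) or 6 genes (Epcam and Cdh1) lay below equality. The median ratio of the 9 genes was -0.61, beside -0.0052 for all measured genes, of which the middle part, between the quartiles, ran from -0.73 to 0.61.

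**Figure D1:**
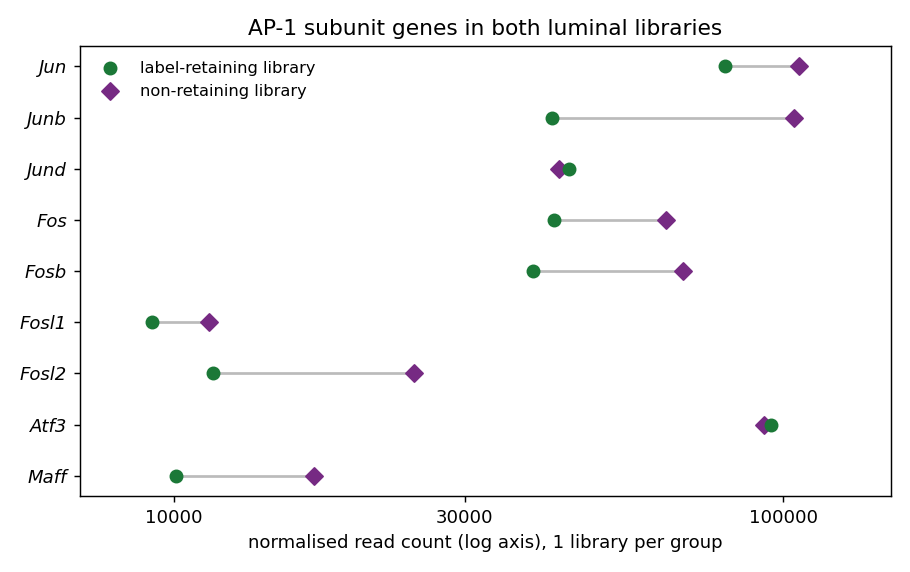
Normalised read counts (log axis) of the 9 genes in the label-retaining library (circles) and the non-retaining library (diamonds), 1 library each, with a line joining both values of a gene. Junb is the widest pair, at 41705 against 104002, while the symbols of Jund and Atf3 nearly coincide.

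The Jun genes encode the subunits able to form AP-1 without Fos. Jun, the founding member and a strong activator (chromosome 4, 95049034 to 95052222, minus strand, mm10, a single exon), had 80397 normalised counts in the label-retaining library and 106262 in the non-retaining library. Its ratio was -0.40 (-0.42 to -0.39). Junb, a weaker activator that can antagonise Jun (chromosome 8, 84974484 to 84978718, minus strand), had 41705 and 104002. It was 2.49-fold lower in label-retaining cells, at -1.32 (-1.33 to -1.30), the lowest ratio of the 9 genes, and 15.2% of measured genes had a lower one. Jund, the Jun gene usually expressed steadily and least dependent on stimulation (chromosome 8, 70698949 to 70700616, plus strand, a single exon), had 44501 and 42914, a ratio of 0.05 (0.03 to 0.07). The Jun genes thus differed among themselves, with Jund nearly level, Jun within 2-fold of equality and Junb beyond it. Between Junb and Jun the ratios differed by -0.92 (-0.95 to -0.88), and between Jund and Junb by 1.37 (1.33 to 1.41). Differences of this kind between genes of the same libraries do not depend on how the libraries are scaled.

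The Fos genes encode the subunits that must pair with Jun. Fos itself (chromosome 12, 85473890 to 85477273, plus strand) had 41985 normalised counts in label-retaining cells and 64185 in non-retaining cells, a ratio of -0.61 (-0.63 to -0.59). Fosb (chromosome 7, 19302696 to 19310051, minus strand), which also gives rise to the shortened protein delta FosB by splicing, had 38805 and 68554, a ratio of -0.82 (-0.84 to -0.80). The table gives 1 value per gene, so the Fosb splice forms were not separated. Fosl1, which encodes Fra-1 (chromosome 19, 5447547 to 5455946, plus strand), had 9199.5 and 11435, a ratio of -0.31 (-0.35 to -0.27). Fosl2, which encodes Fra-2 (chromosome 5, 32135801 to 32157842, plus strand), had 11577.5 and 24801. It was 2.14-fold lower in label-retaining cells, at -1.10 (-1.13 to -1.07). All 4 Fos genes were thus lower in label-retaining cells under the deposited scaling, and Fosl1 turned to the higher side with a scaling on Epcam and Cdh1 (0.04). The Fra pair, which lack the strong activation domain of Fos, differed from each other, with a difference for Fosl2 over Fosl1 of -0.79 (-0.87 to -0.71). Fos and Fosb stood closer, with a difference for Fosb over Fos of -0.21 (-0.25 to -0.17).

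Atf3, a stress-induced factor that represses as a homodimer and can activate with Jun partners (chromosome 1, 191170296 to 191218039, minus strand), had 95612 normalised counts in the label-retaining library and 93046.5 in the non-retaining library. Its ratio was 0.04 (0.03 to 0.05). It was the most abundant of the 9 genes by reads in label-retaining cells, with 95814 reads, and stood behind Jun and Junb in non-retaining cells, with 102287. The ratio of Atf3 differed from that of Jund by -0.013 (-0.05 to 0.02), an interval that holds 0, and from that of Junb by 1.36 (1.32 to 1.39). Maff, a small Maf protein without an activation domain of its own (chromosome 15, 79346621 to 79359076, plus strand), had 10077 and 16949, a ratio of -0.75 (-0.79 to -0.72), close to that of Fosb. Atf3 and Jund were therefore nearly level between the sorts under the deposited scaling, while Maff followed the Fos genes. This depends on the scale: Atf3 and Jund stood at -0.16 and -0.15 with total read counts, at -0.74 and -0.73 with the keratins Krt8 and Krt18, and at 0.40 and 0.41 with Epcam and Cdh1.

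**Figure D2:**
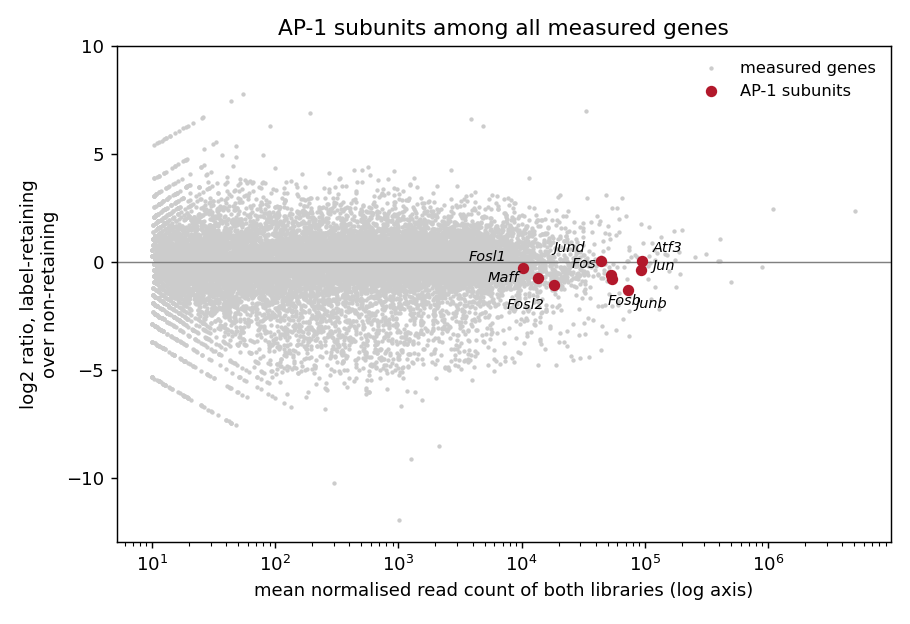
Log2 ratio of label-retaining over non-retaining against the mean normalised read count (log axis) for all 17183 measured genes (grey) and the 9 AP-1 genes (red), deposited scaling. The 9 genes sit at the abundant end of the distribution, between 0.05 (Jund) and -1.32 (Junb).

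Some of these genes share sequence with a neighbour, which limits how exactly their reads can be assigned. The library kit marks strand, but the sources used here do not say whether the counting used strand. Jun overlaps the antisense gene Junos (221 and 317 reads in the label-retaining and non-retaining libraries), Jund overlaps the antisense gene Gm11175 (27 and 48), Junb overlaps Prdx2 (3824 and 3437) and Fosl1 overlaps Ccdc85b (224 and 413). Atf3 overlaps Gm24748, an RNA gene for which no reads are given. Each of the other neighbours had far fewer reads than the AP-1 gene it overlaps. These counts do not show how many reads fell in the shared stretches. Prdx2 lay on the other side of equality from Junb, at 0.29 (0.22 to 0.35).

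Stretches just upstream of a start site are shown as examples for Fos, Jun, Junb and Atf3, and not for the other genes, Jund and Fosl2 among them. Each is 150 bases up to a start annotated by RefSeq on GRCm38.p6, written on the strand of the gene. For Junb and Atf3 this start is not the end of the GENCODE span given above. For Junb it lies just upstream of that span, and for Atf3 well inside it. Capitals mark matches to TGACGT (the core of the cyclic AMP response element), TGACATCA (an AP-1-like element of the Jun promoter) and TATAAA, each searched on both strands.
Fos, chr12:85473740-85473889, plus strand: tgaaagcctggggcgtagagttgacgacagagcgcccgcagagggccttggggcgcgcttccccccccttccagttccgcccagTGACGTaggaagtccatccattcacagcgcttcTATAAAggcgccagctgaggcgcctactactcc
Jun, chr4:95052223-95052372, minus strand: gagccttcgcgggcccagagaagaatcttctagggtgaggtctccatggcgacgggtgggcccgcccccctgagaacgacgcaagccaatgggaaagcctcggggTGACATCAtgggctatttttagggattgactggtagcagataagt
Junb, chr8:84978749-84978898, minus strand: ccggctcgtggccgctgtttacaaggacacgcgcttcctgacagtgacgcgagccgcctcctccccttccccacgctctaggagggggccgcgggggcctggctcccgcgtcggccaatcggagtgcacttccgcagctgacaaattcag
Atf3, chr1:191183334-191183483, minus strand: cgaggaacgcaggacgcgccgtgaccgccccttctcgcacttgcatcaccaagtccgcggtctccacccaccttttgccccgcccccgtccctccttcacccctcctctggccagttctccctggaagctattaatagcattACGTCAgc
Windows from 250 bases before to 50 bases after a start were matched for 8 of the 9 genes, all but Fosl1. These genes had 10 windows, because a gene can have several starts. TGACGT was found in 3 of the 10 windows (Fos, Atf3 and Maff), against 7.51% of all 32851 windows of this length. TGACATCA was found in 2 windows (Jun and Maff), against 3.62%. The full element TGACGTCA, which contains TGACGT, was found in 1 window (Maff), against 1.79%. In Maff, TGACATCA and TGACGTCA lay in windows of different starts. TATAAA was found in 2 windows (Fos and Junb), against 13.6%. In Junb it begins at the RefSeq start, just past the printed stretch, which is why no capitals show there. The consensus AP-1 element TGANTCA was in none of the members' windows and in 7.81% of all windows. The CArG box, the element of the serum response factor, was likewise in none of them and in 1.63% of all. Elements farther than 250 bases upstream of a start could not be found here, so absence from a window is not absence from the promoter. These letters are matches within a short window and say nothing of binding.

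Because levels of different genes can be compared only per length, normalised counts were divided by the kilobases of annotated exon. In the label-retaining library the order was Atf3 (44388 per kilobase), Jund (26679), Jun (25211), Junb (18125), Fos (17851), Fosb (6216), Fosl1 (4525), Maff (3885) and Fosl2 (1196). In the non-retaining library it was Junb (45198), Atf3 (43197), Jun (33321), Fos (27289), Jund (25728), Fosb (10981), Maff (6534), Fosl1 (5625) and Fosl2 (2562). Junb therefore stood at place 1 in non-retaining and place 4 in label-retaining cells, and Jund at places 5 and 2. The counting intervals of neighbours in these orders did not overlap, except for Junb and Fos in the label-retaining library. Replicate spread is unknown, so the order of close neighbours is a description of these libraries. Dividing by the longest protein-coding transcript instead, a choice made after seeing the data, exchanged Maff and Fosl1 in the label-retaining library and left the other places as they were. Among 17111 measured genes with an exon length, the 9 genes ranked between 37 and 1510 per kilobase in the label-retaining library and between 36 and 666 in the non-retaining library.

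The make-up of the AP-1 transcripts within each library, which is free of the scaling between libraries, differed mainly in Junb, Atf3 and Jund. Junb took 11.2% (exact binomial 95% interval 11.1 to 11.3) of the reads of the 9 genes in the label-retaining library and 19.5% (19.4 to 19.6) in the non-retaining library. Atf3 took 25.6% (25.4 to 25.7) and 17.5% (17.4 to 17.6). Jund took 11.9% (11.8 to 12.0) and 8.06% (7.99 to 8.13). Jun, by contrast, differed less in share, with 21.5% and 20.0%, and so did Fos, with 11.2% and 12.1%. Fosb took 10.4% and 12.9%, Fosl2 3.10% and 4.66%, Fosl1 2.46% and 2.15%, and Maff 2.70% and 3.18%. By family, the Jun genes summed to 44.6% of AP-1 reads in label-retaining cells and 47.6% in non-retaining cells, and the Fos genes to 27.2% and 31.8%. Atf3 and Maff together held the rest, 28.3% and 20.7%. Shares are parts of a whole, so a larger share of some genes lowers that of the others. Junb had 0.519 reads per read of Jun in label-retaining and 0.979 in non-retaining cells. Fos had 0.522 reads per read of Jun in label-retaining and 0.604 in non-retaining cells, so the balance of Fos to Jun differed less than that of Junb to Jun. Per kilobase of exon, the share of Junb was 12.2% and 22.55% and that of Atf3 29.98% and 21.6%.

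**Figure D3:**
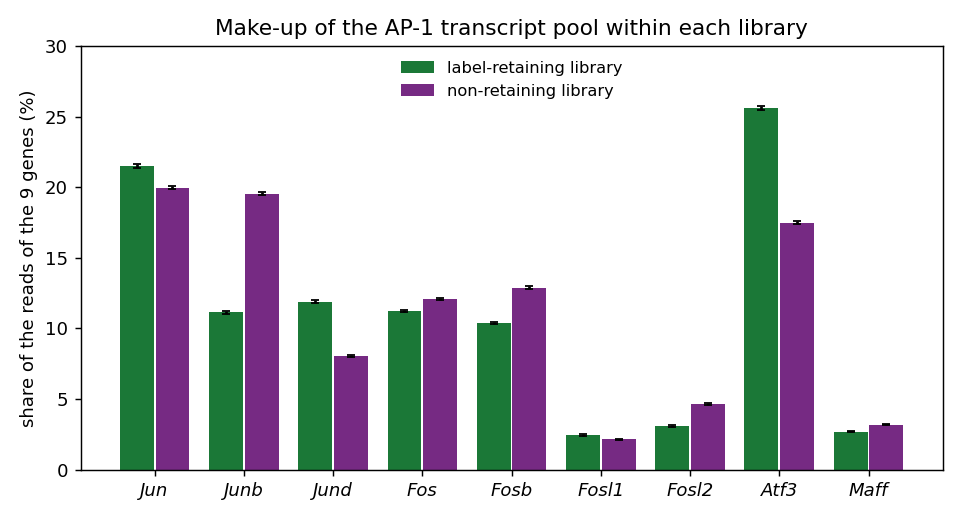
Share of each gene in the summed reads of the 9 AP-1 genes (percent) within the label-retaining library (green) and the non-retaining library (purple). Error bars are exact binomial 95% intervals, which cover counting error only. Atf3 and Jund hold a larger share in label-retaining cells (25.6% and 11.9%) and Junb a smaller one (11.2%).

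How many of the genes count as lower depends on the scale chosen between the libraries, but their order does not. With total read counts 3 genes were at least 2-fold lower (Fosb joined Junb and Fosl2), against 23.3% of all measured genes, and 0 were higher, against 11.1%. With the luminal keratins Krt8 and Krt18 as the scale, 7 genes were lower (all but Jund and Atf3), against 41.3%, and 0 were higher, against 5.23%. With the epithelial adhesion genes Epcam and Cdh1 as the scale, none was lower, against 14.2%, none was higher, against 23.9%, and Jund, Atf3 and Fosl1 lay above equality. Epcam and Cdh1 themselves went opposite ways, at 0.82 (0.79 to 0.84) and -0.79 (-0.81 to -0.78). Their reads were summed for this scale. Cdh1 had more of them (77310 and 146957 in the label-retaining and non-retaining libraries) than Epcam (49032 and 30562). The scale therefore goes the way of Cdh1, and Epcam alone was not used as a scale. These scalings move the median of all measured genes too, to -0.21 with total counts, -0.80 with the keratins and 0.36 with Epcam and Cdh1. They also turn the split of all calls from 2483 higher and 3330 lower to 1917 and 4001, 903 and 7128, and 4099 and 2443. Relative to the median of all measured genes, the median of the 9 genes was lower by between 0.59 and 0.61 under all 6 scalings, with differences of -0.59 (keratins) to -0.61. A scaling shifts both medians together, so this sameness is built in and adds no support.

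**Figure D4:**
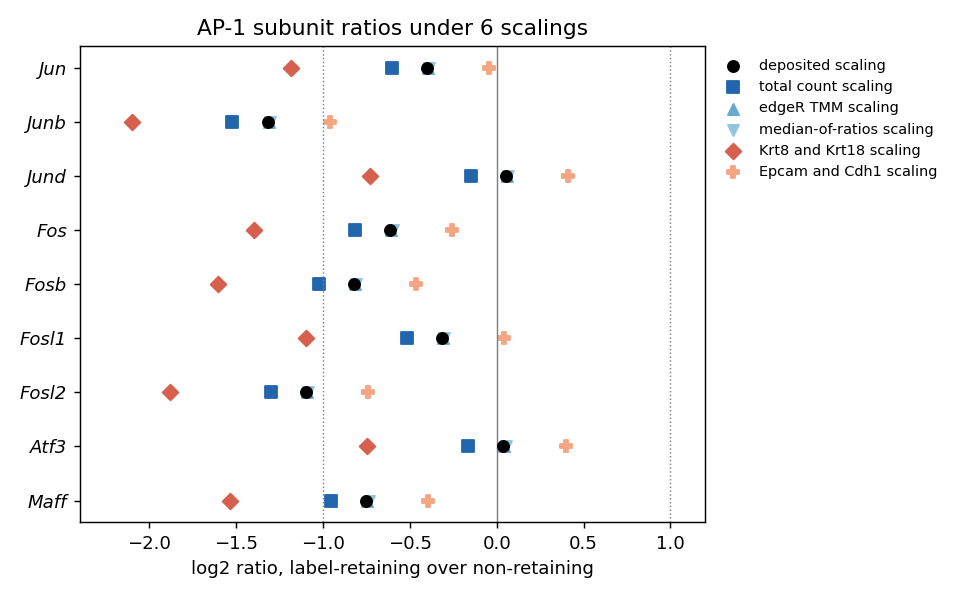
Log2 ratio of label-retaining over non-retaining for the 9 AP-1 genes under 6 scalings between the libraries, 1 symbol per scaling, with dotted lines at 2-fold. A change of scale slides all genes together, so that Junb, which runs from -2.10 (keratins) to -0.96 (Epcam and Cdh1), necessarily stays lowest under each.

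Rapid mRNA decay through AU-rich elements is a known trait of immediate early transcripts. In the longest annotated 3' untranslated region of each gene (GENCODE M21), the pentamer ATTTA occurred at least once in 9 of 9 AP-1 genes and in 69.5% of 14345 measured genes with such a region. The nonamer TTATTTATT, the optimal site of the Zfp36 decay factors, occurred in Fos, Fosl2 and Maff, and in 8.15% of all. Per kilobase, Fos (4.91 pentamers) and Junb (4.12) were the densest of the 9, Fosb (0.434) the sparsest, and the median over all genes was 1.29. For the genes at both ends of the range of ratios and for Fos, a 30-base stretch with the most pentamers is shown, on the gene's strand in GRCm38, with pentamers in capitals.
Fos, chr12:85477101-85477130: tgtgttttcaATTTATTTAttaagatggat
Fosl2, chr5:32156865-32156894: attgacATTTAttttattATTTAttttaaa
Junb, chr8:84977126-84977155: atatatttgtgtATTTAacagggaggggag
Jund, chr8:70700359-70700388: cgattccgccctATTTAtgtttctactcgg
The stretches of Fos, where the pentamers overlap, and of Fosl2, where they do not, each hold the nonamer. Those of Junb and Jund each show a lone pentamer. The order by density was not the order by ratio: Fosb, with a ratio of -0.82, had fewer pentamers per kilobase than Jund, with 1.88, and Atf3, with 2.53. Over all measured genes with the nonamer, 22.2% were at least 2-fold lower and 13.3% higher, against 19.5% and 14.5% of those without it.

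The Zfp36 genes, whose products act on such mRNAs, had lower ratios than any of the 9 AP-1 genes. Of 15 measured genes of mRNA decay and of Jun and Fos turnover, 3 were lower and 0 higher (median -0.22), a share lower that is near the 19.4% of all measured genes. The lower ones were the 3 listed members of the Zfp36 family, which bind AU-rich elements and recruit deadenylases. Zfp36l2 had 2955 reads in label-retaining cells and 25040 in non-retaining cells, a ratio of -2.95 (-3.00 to -2.89). Zfp36l1 stood at -1.67 (-1.71 to -1.62). Zfp36, the most abundant of the list with 17751 and 52665 reads, stood at -1.44 (-1.46 to -1.41). With Epcam and Cdh1 as the scale 3 genes of the list were lower (median 0.14), and with the keratins 7 (median -0.999).

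Upstream of AP-1, few genes of the MAP kinase cascade were called, while most of those that shut it off were lower. Of 23 measured kinase genes, 4 were higher and 2 lower (median 0.31), against 14.5% and 19.4% of all measured genes. With the keratin scale this became 1 higher and 5 lower (median -0.48). Mapk12, which encodes p38 gamma, had 602 and 168 reads in the label-retaining and non-retaining libraries and stood at 1.97 (1.73 to 2.23). Rps6ka2, a ribosomal S6 kinase gene downstream of ERK, stood at 1.36 (1.23 to 1.48), whereas Rps6ka5, which encodes the chromatin kinase MSK1, stood at -1.79 (-2.08 to -1.51). Map2k3, a kinase gene of the p38 branch and the most abundant of the list, stood at 0.44 (0.40 to 0.47). Of 16 feedback genes, which encode MAP kinase phosphatases, Sprouty and Spred proteins, 12 were lower and 1 higher (median -1.39), against 19.4% and 14.5% of all measured genes. Between 9 and 12 of them were lower under the 6 scalings. Dusp6, an ERK phosphatase that ERK signalling itself induces, had 1900 and 29621 reads and stood at -3.83 (-3.90 to -3.76). Spry4 stood at -3.72 (-3.89 to -3.56) and Dusp2 at -3.07 (-3.31 to -2.85). Dusp1, the most abundant and itself an immediate early gene, stood at -1.02 (-1.05 to -0.99). Each of these 4 feedback genes but Dusp1 was thus farther from equality than any AP-1 gene.

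Of 17 measured genes of transcriptional activators that act on AP-1 promoters, 0 were higher and 3 lower (median -0.49), against 14.5% and 19.4% of all measured genes, so that the share lower was near the background. With the keratin scale 13 were lower (median -1.27) and with Epcam and Cdh1 none was. Srf, the serum response factor gene that drives Fos, had 17603 and 32026 reads and stood at -0.73 (-0.76 to -0.70). Its coactivator gene Mrtfa stood at -1.30 (-1.39 to -1.20), Crem, a cyclic AMP responsive factor gene, at -1.23 (-1.32 to -1.13), and Mef2c at -1.27 (-1.61 to -0.94).

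**Figure D5:**
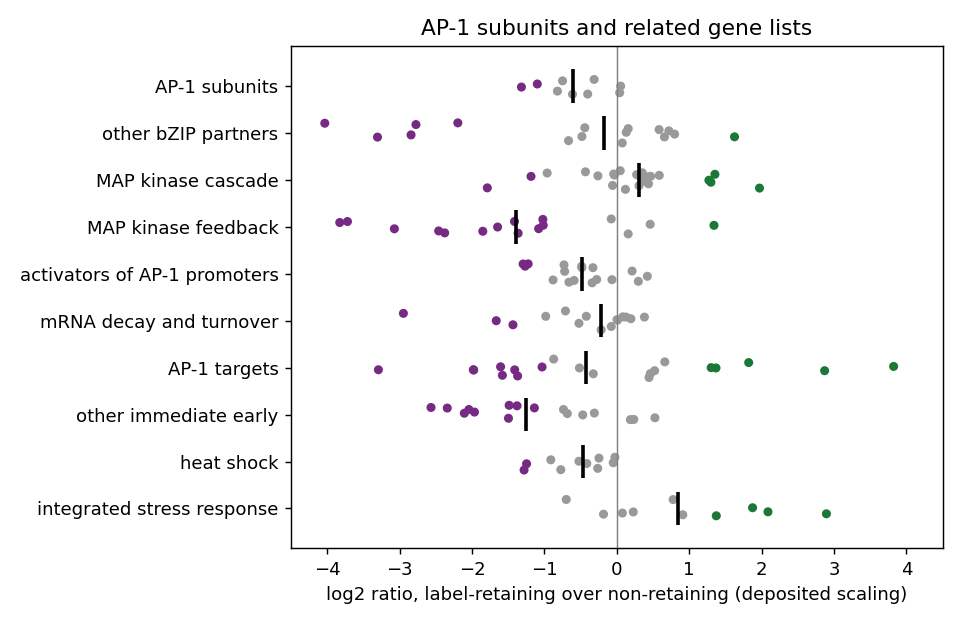
Log2 ratio of label-retaining over non-retaining (deposited scaling) for each measured gene of 10 lists. Points are genes, green where at least 2-fold higher, purple where at least 2-fold lower and grey otherwise, with vertical scatter for legibility, and black bars are list medians. The AP-1 genes span from -1.32 to 0.05, a range similar to that of the heat shock genes (-1.28 to -0.03), while the MAP kinase feedback genes reach -3.83.

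Other basic leucine zipper genes whose products pair with AP-1 or Maf proteins ranged more widely than the 9 genes. Of 18 listed, 16 were measured, and Nrl and Nfe2 were not analysed here. In this list 1 gene was higher and 5 were lower (median -0.18), against 14.5% and 19.4% of all measured genes. It became 4 higher and 5 lower with Epcam and Cdh1 as the scale (median 0.17), and 0 higher and 8 lower with the keratins (median -0.97). Maf, the large Maf factor gene c-Maf, had 345 and 6215 reads and stood at -4.04 (-4.20 to -3.88). Mafa stood at -3.31 (-3.64 to -3.00) and Bach2, a repressor gene active in lymphocytes, at -2.78 (-3.04 to -2.53). Nfe2l1, the most abundant, was level at 0.08 (0.05 to 0.10). Maf, Mafa and Bach2 had at most 6215 reads in either library, below the least abundant AP-1 gene. The 10 T and natural killer cell markers summed to 138 reads in label-retaining cells and 11393 in non-retaining cells, and 1 marker, Gzma, was at 0 in the former, which allows up to 3 reads. The part of those cells in the values of Maf and Bach2 was not tested.

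Genes described as AP-1 targets were split. Of 22 listed, 20 were measured, 5 were higher and 8 lower (median -0.42), against 14.5% and 19.4% of all measured genes. It became 6 higher and 7 lower with Epcam and Cdh1 as the scale (median -0.07), and 3 higher and 11 lower with the keratins (median -1.19). Tgfb1, a growth factor gene, had 340 and 3664 reads and stood at -3.29 (-3.46 to -3.14). In the other direction, Ivl, which encodes the envelope protein involucrin, had 310 and 46 reads and stood at 2.87 (2.44 to 3.37), and Mmp9, a matrix protease gene, had 97 and 7 reads and stood at 3.82 (2.83 to 5.28). Ezr, which encodes the cortical linker ezrin and was the most abundant, stood at 0.52 (0.51 to 0.54), and turned below equality with the keratin scale.

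Among other immediate early genes, 9 of 16 were lower and 0 higher (median -1.26), against 19.4% and 14.5% of all measured genes. Their median lay below that of the AP-1 genes, an order that the choice of scaling cannot change because a scaling shifts all ratios together. Nr4a3, an orphan nuclear receptor gene, stood at -2.57 (-2.64 to -2.50), while Klf6, the most abundant, stood at 0.53 (0.51 to 0.54) and turned below equality with the keratin scale. Over both libraries, the protein-coding genes nearest to Fos in log2 ratio and log2 mean level together were Hsp90aa1 (distance 0.092), a chaperone gene at -0.52 (-0.54 to -0.51), H3f3b (0.17), a replacement histone gene at -0.45 (-0.47 to -0.43), and Serinc3 (0.21), a membrane protein gene at -0.81 (-0.83 to -0.80). With 2 libraries this likeness rests on 1 ratio and 1 level per gene.

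Beside these values, markers of the other cell types that the sorts could hold were counted. All 10 basal and all 10 smooth muscle markers were lower in label-retaining cells by 2-fold or more, with median ratios of -4.39 and -2.94. Smooth muscle markers summed to 2093 and 27199 reads, and endothelial markers, 7 of 10 lower, to 852 and 3344. Of the macrophage markers 3 were higher and 0 lower, with sums of 2674 and 2963 reads. Of the fibroblast markers 3 were higher and 4 lower, with sums of 40934 and 136583. Dcn, singled out after its values were seen, had 4930 and 92262 of these reads, and the other 9 markers summed to 36004 and 44321. Apart from Gzma, none of these markers was at 0 in either library. The part of these cells in the AP-1 values was not tested.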

How the data were processed

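Total RNA of 2 sorted luminal populations, 1 library each, was made into strand-marked libraries and sequenced, per the labels' protocols. Named in the submitters' processing notes, without roles, are the mm10 build, DESeq 1.16.0, HTSeq 0.6.0, Bowtie2 2.1.0, TopHat2 2.0.10 and CASAVA 1.8.2. The sources used here do not give the annotation or strand handling. The deposited values are a normalised signal: gene read counts that the authors divided by 1 size factor per library (1.00 label-retaining, 1.10 non-retaining), as the values show. All values (100%) came out as whole reads, with a largest deviation of 5.2e-10 and 2.3e-09 reads.

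Symbols, positions and lengths came from GENCODE M21 on GRCm38 (mm10), which named 18634 identifiers and left 90 without a symbol. Ratios used a pseudocount of 0.5 normalised counts. Measured genes had a mean normalised count of at least 10. Genes were called by size from a log2 ratio of 1 or -1 with a Clopper-Pearson 95% counting interval on the same side of 0. With 1 library per group no p-value was computed. Intervals and shares cover counting error only, and reads without molecular identifiers are not independent molecules. Intervals of differences between genes combine the exact binomial intervals of both libraries and are conservative. Calculations were tested on simulated data. Tools were Python 3.11.15, scipy 1.17.1 and edgeR 4.0.16 (TMM factors only) in R 4.3.3. Named genes were the 9 members and, per list, up to 3 called genes, ranked by the interval bound on the side of equality, plus the most abundant measured gene. Overlapping genes, marker genes, the genes of each scale and, in the integrated stress response, Sesn2, Eif2ak4 and Ppp1r15a are named besides. The members and lists were chosen with earlier results of these data known.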

Additional observations from a re-analysis of the deposited data

How the results depend on the processing

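Under the deposited scaling 2 AP-1 genes were at least 2-fold lower, 0 higher, and the median log2 ratio was -0.61. The count of lower genes became 7 with the Krt8 and Krt18 scale, 0 with the Epcam and Cdh1 scale and 0 at a threshold of 4-fold. The Epcam and Cdh1 scale goes the way of Cdh1, the gene of the pair with more reads. The median became -0.81 with total counts, -1.40 with the keratins and -0.26 with Epcam and Cdh1. The counts and the median kept their values within the counting error with edgeR TMM factors, median-of-ratios factors, a pseudocount of 5, no filter and a minimum of 100. The shifts with the scale follow from the scale itself. The difference in the share of Junb among AP-1 reads, label-retaining minus non-retaining, was -8.39 percentage points by reads, -10.3 per kilobase of exon and -11.0 per kilobase of the longest protein-coding transcript, the last chosen after seeing the data. No paired analysis was possible because each group has 1 library, and for the same reason no replicate could be left out. Depth did not limit the AP-1 genes, whose widest interval was -0.35 to -0.27 (Fosl1). It limits genes of few reads such as Mmp9.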

Other observations

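Of 10 heat shock genes, 2 were lower in label-retaining cells by 2-fold or more and 0 higher (median log2 ratio -0.47, beside -0.61 for the AP-1 genes). The share lower was near the 19.4% of all measured genes. All 10 ratios nevertheless lay below equality under the deposited scaling, from -1.28 to -0.03, beside a median of -0.0052 for all measured genes. The ratio nearest to equality had an interval holding 0. With Epcam and Cdh1 as the scale 0 were lower, and with the keratins 8 (median -1.25). Dnajb1, a co-chaperone gene induced by heat shock factor, stood at -1.28 (-1.31 to -1.25) and Hspb1, a small heat shock protein gene, at -1.25 (-1.27 to -1.22), while Hspa8, the constitutive chaperone gene and the most abundant, stood at -0.05 (-0.06 to -0.04).

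In the integrated stress response, Atf4 induces Atf3 among other genes. Of 10 genes of this response, 4 were at least 2-fold higher and 0 lower (median 0.84), against 14.5% and 19.4% of all measured genes. With the keratin scale 3 were higher and 1 lower (median 0.06). Sesn2, at -0.70 (-0.75 to -0.65), and Eif2ak4, at -0.18 (-0.26 to -0.11), lay below equality. Chac1, a glutathione-degrading enzyme gene, had 9619 reads in label-retaining cells and 1417 in non-retaining cells and stood at 2.90 (2.82 to 2.98). Eif2ak3, which encodes the endoplasmic reticulum kinase PERK, stood at 2.09 (2.03 to 2.14) and Asns, the asparagine synthetase gene, at 1.88 (1.82 to 1.93). Atf4 itself, the most abundant, stood at 0.23 (0.21 to 0.25), near Atf3 at 0.04 (0.03 to 0.05). Ppp1r15a, of the same list, lay near Atf3 as well, at 0.08 (0.05 to 0.10). The ratio of Atf3 was above those of the Fos genes and below those of Chac1, Eif2ak3 and Asns. The part of this response in the level of Atf3 was not tested.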
